A study of Mus musculus with 39 samples.

Results

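The 10 genes described here lie on mouse chromosome 16 within 20 Mb of Nr1i2, the gene of the nuclear receptor SXR/PXR that was knocked out in these mice. They are Pla1a, Timmdc1, Abhd10, Gm15638, Plcxd2, Cd96, Ift57, Cd47, Dubr and Impg2. They are 10 of the 54735 genes in each tissue's table and of the 566 table genes inside that distance. They were chosen by their measured counts: each had differed between knockout and wild type in these same libraries. Their genotype values below are therefore a description with no test.

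RNA was sequenced from liver and spleen of C57BL/6 mice aged 4 weeks. In each tissue the groups cross wild-type with SXR knockout mice, and PCB-153 with its vehicle, DMSO. PCB-153 is a polychlorinated biphenyl that persists in the environment and in fat, and the labels give its dose as about 54 µg per kg daily, starting around birth. The 4 groups of a tissue, wild-type vehicle, wild-type PCB-153, knockout vehicle and knockout PCB-153, held 5 libraries each, except for 4 wild-type vehicle spleens, which gave 39 libraries. The labels give the strain as C57BL/6 for both genotypes. The sources used here do not say how the knockout allele was made and bred, or which animals or litters gave the libraries. A p-value therefore reflects the spread between libraries, which may be technical.

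Liver libraries held 15.23 to 28.65 M assigned reads and spleen libraries 16.1 to 29.52 M. The tissue labels were checked against defining genes. Alb was at 1288324 or more normalised counts in every liver and at 8921 or less in every spleen, and Cd79a was at 3151 or more in every spleen and at 28.9 or less in every liver. Nr1i2, the targeted gene, was at 449 to 1155 normalised counts in knockout livers and 1019 to 1939 in wild-type livers. In spleen it went against the label: 9 wild-type libraries held 5 Nr1i2 reads in all (0 to 2.27 normalised counts), and the 10 libraries labelled knockout held 537 (42.9 to 62.8). Spleen libraries are therefore called labelled knockout throughout. Counts were per gene, so which exons the reads came from is not shown.

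SXR/PXR binds drugs, steroids and other foreign compounds and switches on genes for their metabolism, chiefly in liver and gut. It binds DNA with its partner RXR at pairs of half-sites related to AGGTCA and AGTTCA. The 10 genes near it have no shared function. Pla1a and Abhd10 act on lipids, Cd47 and Cd96 are surface receptors of the immune system, Timmdc1 serves the mitochondrial respiratory chain, and Ift57 serves the cilium. Plcxd2 is a phospholipase C-like gene, Impg2 is known from the retina, and Dubr and Gm15638 make RNAs with no known protein.

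All positions are from GRCm38 (mm10). Nr1i2 lies at chr16:38248323-38294824 on the minus strand. All 10 genes lie on its higher-coordinate side, toward the chromosome end, 0.10 to 17.91 Mb away, and 0 lie on the other side. Pla1a (chr16:38396117-38433145) and Timmdc1 (chr16:38498347-38522663) are the nearest, at 0.10 and 0.20 Mb. Abhd10 (chr16:45729725-45742955), Gm15638 (chr16:45945606-45971370), Plcxd2 (chr16:45959263-46010218) and Cd96 (chr16:46035657-46120251) follow within 0.39 Mb of each other, at 7.43 to 7.74 Mb. Ift57 (chr16:49699233-49765126) and Cd47 (chr16:49800533-49915010) are neighbours on the plus strand with 35.4 kb between them, at 11.40 and 11.51 Mb. Dubr (chr16:50719294-50732773) is at 12.42 Mb and Impg2 (chr16:56204313-56273756) at 17.91 Mb. Of the 10 genes, 6 are on the minus strand and 4 on the plus strand.

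Of the 10 genes, 6 overlap another annotated gene on the opposite strand. Gm15638 is antisense to Plcxd2 over 12108 bases, with 0 shared exonic bases. Ift57 shares 225 exonic bases with the antisense gene Gm15518, and Abhd10 shares 426 with the antisense gene Gm15591. The labels name both a stranded and another kit, so whether counting used strand is unknown and reads in such shared exons cannot be told apart. Values of Ift57 and Abhd10 carry that uncertainty.

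Promoter sequences, here 250 bases before to 50 after a transcript start, were taken from RefSeq for GRCm38.p6. Of the 10 genes, 9 matched, all but Pla1a. Both strands were searched for AGGTCA and AGTTCA, whose reverse complements are TGACCT and TGAACT. At least 1 of these half-sites was in the promoters of 3 of the 9 genes, Dubr, Abhd10 and Gm15638, and in 27.7% of 32851 mouse promoter windows (AGGTCA in 16.3%, AGTTCA in 14%). Those 3 are printed because they hold a match, and Ift57 because it is the 1 gene whose counts did not overlap between genotypes in either tissue. Half-sites are in capitals.
Dubr (chr16:50732724-50733023, minus strand): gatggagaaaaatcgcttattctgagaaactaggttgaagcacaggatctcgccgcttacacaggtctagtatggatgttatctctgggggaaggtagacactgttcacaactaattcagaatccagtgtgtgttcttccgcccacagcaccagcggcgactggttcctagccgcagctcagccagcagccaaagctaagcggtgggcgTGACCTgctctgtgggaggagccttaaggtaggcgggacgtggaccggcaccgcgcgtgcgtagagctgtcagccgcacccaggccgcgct
Abhd10 (chr16:45742906-45743205, minus strand): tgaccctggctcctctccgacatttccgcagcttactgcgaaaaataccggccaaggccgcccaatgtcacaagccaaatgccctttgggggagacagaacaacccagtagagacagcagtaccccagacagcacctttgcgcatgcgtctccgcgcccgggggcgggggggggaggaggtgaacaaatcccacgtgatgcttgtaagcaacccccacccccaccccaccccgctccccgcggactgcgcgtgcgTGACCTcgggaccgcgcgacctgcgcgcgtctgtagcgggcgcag
Gm15638 (chr16:45945356-45945655, plus strand): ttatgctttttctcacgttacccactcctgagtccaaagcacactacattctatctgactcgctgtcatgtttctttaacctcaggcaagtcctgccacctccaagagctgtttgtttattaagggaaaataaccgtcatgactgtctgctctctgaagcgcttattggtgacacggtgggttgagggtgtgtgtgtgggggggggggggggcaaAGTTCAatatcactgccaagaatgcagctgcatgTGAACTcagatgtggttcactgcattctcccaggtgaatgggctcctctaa
Ift57 (chr16:49699044-49699343, plus strand): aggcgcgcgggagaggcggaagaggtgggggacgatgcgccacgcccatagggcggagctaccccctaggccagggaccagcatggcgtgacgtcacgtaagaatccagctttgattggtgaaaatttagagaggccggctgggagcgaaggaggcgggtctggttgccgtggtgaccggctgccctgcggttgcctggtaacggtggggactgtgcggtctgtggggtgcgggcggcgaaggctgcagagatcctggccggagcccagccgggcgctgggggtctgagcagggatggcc
Dubr and Abhd10 each held 1 match to AGGTCA, read on the opposite strand. Gm15638 held a match to AGTTCA on either strand. The Ift57 window held none of the searched letters, which says nothing more than that. A match is a description of letters and not of a bound site.

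The genes differed widely in level between tissues. Per kilobase of exon, the order in wild-type vehicle livers was Pla1a at 457 normalised counts, Timmdc1 at 190, Cd47 at 170, Plcxd2 at 116, Abhd10 at 29.1, Gm15638 at 17.7, Ift57 at 3.43, Impg2 at 3.28, Dubr at 2.54 and Cd96 at 0.819. In wild-type vehicle spleens, also per kilobase, Cd47 led at 1173, followed by Timmdc1 at 133, Cd96 at 72.8, Abhd10 at 55.5, Ift57 at 50.7, Dubr at 32.6, Plcxd2 at 21.8, Pla1a at 4.62, Impg2 at 4.11 and Gm15638 at 0.259. The 2 tables were normalised separately, so levels are not compared between tissues by a test. Neighbours whose libraries overlapped were Timmdc1 and Cd47, and Ift57, Impg2 and Dubr, and Dubr and Cd96, in liver, and Abhd10 and Ift57, and Pla1a and Impg2, in spleen. All further levels are normalised counts per gene, not per kilobase.

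**Figure D1:**
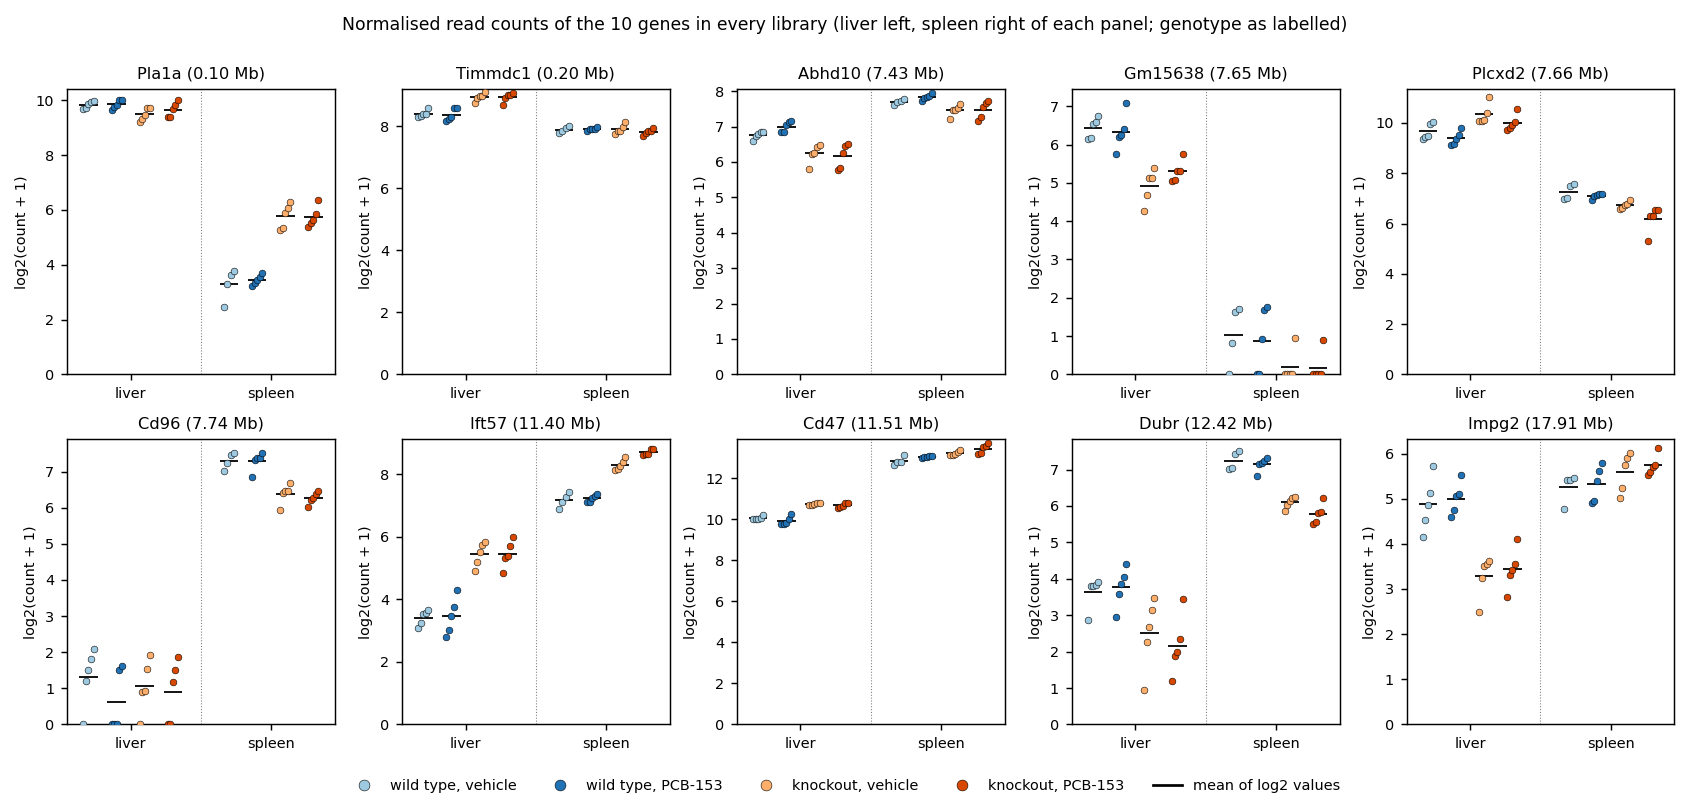
Normalised read counts of the 10 genes in every library, as log2(count + 1) with 1 panel per gene in order of distance from Nr1i2. Points are libraries and bars are means of the log2 values of the 4 groups in liver (left) and spleen (right); points of Ift57 labelled knockout lie above wild-type points in both tissues, and those of Cd96, Dubr and Plcxd2 labelled knockout lie below them in spleen.

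Genes entered the tests when their mean was at least 10 normalised counts over a tissue's libraries. That kept 8 of the 10 in liver, without Cd96 and Dubr, and 9 in spleen, without Gm15638. Differences are log2(value + 1), knockout (in spleen, labelled knockout) minus wild type, ± SE from limma, and a gene is called when its adjusted p is under 0.05 over all genes tested. With vehicle, 5 of the 8 tested genes were called in liver, against 0.607% of all 16155 genes, and 4 of 9 in spleen, against 0.0315% of 19058. With PCB-153 it was 6 of 8 in liver, against 1.45%, and 5 of 9 in spleen, against 0.157%. Those contrasts chose the genes, so nothing is read from these counts.

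Over both exposures, all libraries labelled knockout lay outside the wild-type range for 5 of the 8 genes tested in liver, against 0.316% of all genes, and for 5 of 9 in spleen, against 0.0577%. Ift57 was the 1 gene for which this held in both tissues. For 4 genes it held in liver alone (Cd47, Timmdc1, Abhd10 and Impg2) and for 4 in spleen alone (Pla1a, Cd96, Dubr and Plcxd2). The sign of the difference in means was the same in both tissues for 6 of the 10 genes and opposite for 4, which were Pla1a, Timmdc1, Plcxd2 and Impg2. Some of these signs are weak. Cd96 in liver and Gm15638 in spleen had few reads, and the spleen means of Timmdc1 were close (239 in wild type, 233 in labelled knockout). Nothing is read from the split. In bulk tissue, fewer cells of a type and less RNA per cell cannot be told apart.

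Ift57 encodes a subunit of the IFT-B complex, which carries cargo along cilia. Its liver counts were 7.51, 8.39, 10.6, 10.9 and 11.6 in wild-type vehicle, and 6.00, 7.20, 10.1, 12.5 and 18.5 in wild-type PCB-153. They were 29.1, 36.0, 44.3, 52.4 and 55.9 in knockout vehicle, and 27.9, 38.7, 40.8, 50.8 and 62.7 in knockout PCB-153. The lowest knockout liver, at 27.9, lay above the highest wild-type liver, at 18.5. The mean was 4.25-fold higher in knockout livers, with log2 differences of 2.02 ± 0.27 with vehicle and 1.98 ± 0.27 with PCB-153.

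In spleen the same gene ranged from 117 to 171 in 9 wild-type libraries (median 151) and from 282 to 450 in 10 labelled knockout libraries (median 385), again with no overlap. The mean was 2.49-fold higher, and the log2 difference was 1.13 ± 0.11 with vehicle and 1.48 ± 0.10 with PCB-153. Its antisense neighbour Gm15518 moved the same way in spleen, 37.8 to 57.3 in wild type and 64.7 to 122 in labelled knockout. How many reads the 2 share was not tested. Of 15 tested IFT-B partners of Ift57 in liver and 16 in spleen, 0 were called in either genotype comparison of either tissue. Of all genes, 0.607% and 1.45% were called in liver and 0.0315% and 0.157% in spleen (vehicle, then PCB-153). At such shares a short list would mostly hold 0 called genes, here and for the lists below, so nothing is read from that. The partners had median log2 differences of -0.07 and -0.06 in liver and 0.04 and 0.02 in spleen.

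Cd47, next to Ift57, encodes the surface protein that tells macrophages not to engulf a cell. Its liver counts were 870 to 1222 in 10 wild-type libraries (median 1027) and 1493 to 1790 in 10 knockout libraries (median 1688). The groups did not overlap and the mean was 1.64-fold higher, with log2 differences of 0.67 ± 0.09 and 0.76 ± 0.09. In spleen, where Cd47 was abundant, wild-type libraries held 6471 to 9020 and labelled knockout libraries 8865 to 13178, so the ranges overlapped. The spleen mean was 1.30-fold higher, with log2 differences of 0.38 ± 0.10 and 0.39 ± 0.10. Of its listed ligands and partners (9 tested in liver, 12 in spleen), 0 were called in either genotype comparison of either tissue. The shares over all genes were 0.607% and 1.45% in liver and 0.0315% and 0.157% in spleen.

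Pla1a encodes a secreted phospholipase that makes lysophosphatidylserine, a lipid signal for immune cells. In liver it overlapped between genotypes, at 802 to 1037 in wild type and 596 to 1036 in knockout. In spleen the wild-type counts were 4.49, 8.79, 11.3 and 12.5 with vehicle, and 8.42, 9.07, 10, 10.7 and 12.1 with PCB-153. The labelled knockout counts were 37.9, 39.6, 57.6, 66.4 and 77.9 with vehicle, and 40.6, 44.7, 48.8, 57.2 and 81.7 with PCB-153. The highest wild-type spleen, at 12.5, lay below the lowest labelled knockout spleen, at 37.9, and the mean was 5.68-fold higher. The log2 differences were 2.49 ± 0.27 and 2.29 ± 0.26 in spleen, and -0.36 ± 0.13 and -0.19 ± 0.13 in liver.

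Pla1a and Nr1i2 are both liver genes, and both were higher in the labelled knockout spleens. The summed hepatocyte markers (8 genes) were at 26.8 to 168 normalised counts in labelled knockout spleens with PCB-153, at 29.2 to 12513 in those with vehicle, and at 39.3 to 4028 in wild-type spleens. Summed macrophage markers (9 genes) were at 9401 to 12139 in wild-type spleens and 11564 to 18542 in labelled knockout spleens. The part of either cell type in the Pla1a values was not tested. Of 8 tested spleen genes for related lipases and lysophosphatidylserine receptors, 0 were called between genotypes, against 0.0315% (vehicle) and 0.157% (PCB-153) of all genes.

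Timmdc1 encodes an assembly factor of respiratory complex I. It held 290 to 387 counts in wild-type livers and 416 to 556 in knockout livers, with no overlap and a mean 1.47-fold higher. In spleen the ranges were 219 to 257 and 206 to 278. The log2 differences were 0.55 ± 0.10 and 0.57 ± 0.10 in liver, and 0.02 ± 0.08 and -0.09 ± 0.08 in spleen. The small spleen value with vehicle became -0.01 under quantile normalisation, -0.02 without wild-type vehicle replicate 5 and -0.04 without labelled knockout vehicle replicate 5. Of 15 tested complex I assembly factors, 0 were called between genotypes in either tissue. The shares over all genes were 0.607% and 1.45% in liver and 0.0315% and 0.157% in spleen.

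Abhd10 encodes a mitochondrial enzyme that removes fatty acyl groups from proteins. Its counts were 95.1 to 142 in wild-type livers and 54.1 to 90.8 in knockout livers, with no overlap and a mean 1.59-fold lower in knockout. In spleen they were 193 to 245 in wild type and 141 to 211 in labelled knockout, which overlap. The log2 differences were -0.53 ± 0.16 and -0.83 ± 0.16 in liver, and -0.23 ± 0.11 and -0.36 ± 0.11 in spleen. The antisense gene Gm15591, picked because it overlaps Abhd10, was also lower in knockout livers, at 7.08 to 13 against 13.5 to 20.8.

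Plcxd2 and the antisense transcript Gm15638 occupy the same stretch, and their means differed in opposite directions in liver. Plcxd2 held 558 to 1060 counts in wild-type livers and 846 to 2117 in knockout livers. Gm15638 held 52.6 to 135 in wild-type livers and 18.2 to 52.7 in knockout livers, so the ranges overlapped between 52.6 and 52.7. The log2 differences in liver were 0.67 ± 0.19 and 0.61 ± 0.19 for Plcxd2, and -1.53 ± 0.23 and -1.03 ± 0.23 for Gm15638. By limma Gm15638 was called in both liver comparisons and Plcxd2 in neither. The Plcxd2 ranges overlapped with PCB-153 and over both exposures. With vehicle they lay just apart, at 1060 or less in wild type and 1080 or more in knockout. DESeq2 called Plcxd2 in liver with vehicle (adjusted p 0.0434). Phldb2, which Gm15638 also overlaps, was at 415 to 541 in wild-type and 313 to 583 in knockout livers.

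In spleen Plcxd2 went the other way, at 122 to 190 in wild type and 38.0 to 121 in labelled knockout, with log2 differences of -0.54 ± 0.19 and -0.91 ± 0.18. Its highest labelled knockout spleen, at 121, was just below the lowest wild-type spleen, at 122. Gm15638 was almost absent from spleen, with 10 reads over 9 wild-type libraries and 2 over 10 labelled knockout libraries. The ratio of labelled knockout to wild type for those reads was 0.158 with vehicle (95% exact interval 0.00335 to 1.41) and 0.226 with PCB-153 (0.00478 to 2.02), so no difference was detectable at this depth. Such intervals cover counting error only.

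Cd96 encodes a receptor of T cells and natural killer cells that binds nectin-family proteins. Its spleen counts were 129, 150, 174 and 182 in wild-type vehicle, and 114, 159, 165, 166 and 181 in wild-type PCB-153. They were 60.0, 83.2, 86.9, 87.0 and 101 in labelled knockout vehicle, and 64.5, 73.0, 76.0, 82.7 and 87.2 in labelled knockout PCB-153. All labelled knockout spleens lay below all wild-type spleens. The mean was 1.97-fold lower, with log2 differences of -0.93 ± 0.15 and -1.02 ± 0.14.

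Cd96 is carried by T cells and natural killer cells, and their markers overlapped between the genotypes in spleen. Summed T cell markers (14 genes) were at 8886 to 11834 in wild-type spleens and 6539 to 11587 in labelled knockout spleens, and summed natural killer cell markers (10 genes) at 1117 to 1752 and 1039 to 1617. Per 1000 counts of those 24 markers, Cd96 stood at 10.8 to 15.9 in wild-type and 5.71 to 9.95 in labelled knockout spleens. The part of these cells in the Cd96 values was not tested. Of the 10 nectin-binding receptors and ligands listed, 0 were called between genotypes in spleen, against 0.0315% (vehicle) and 0.157% (PCB-153) of all genes. Tigit and Nectin3, which are among them, lie close by on chromosome 16, at 5.35 and 8.09 Mb from Nr1i2. The log2 difference of Tigit was 0.22 ± 0.23 with vehicle, and that of Nectin3 was 0.70 ± 0.15. In liver Cd96 had 12 reads over 10 wild-type and 14 over 10 knockout libraries, too few for a comparison.

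Dubr is a long non-coding RNA located between protein-coding genes. In spleen it held 129, 130, 170 and 180 counts in wild-type vehicle, and 113, 142, 145, 149 and 159 in wild-type PCB-153. Labelled knockout spleens held 57.2, 64.6, 68.8, 73.0 and 75.0 with vehicle, and 44.1, 45.8, 55.2, 56.0 and 73.7 with PCB-153. No labelled knockout spleen reached the lowest wild-type value of 113. The mean was 2.39-fold lower, with log2 differences of -1.15 ± 0.15 and -1.36 ± 0.14. In liver Dubr was below the level tested, with 120 reads in wild type and 53 in knockout. The ratio of knockout to wild type was 0.471 with vehicle (95% exact interval 0.291 to 0.751) and 0.291 with PCB-153 (0.173 to 0.473). These intervals pool the reads of a group and cover counting error only, so they are no test of genotype. Single libraries overlapped, at 6.26 to 20.3 normalised counts in wild-type and 0.939 to 10.1 in knockout livers. For liver with PCB-153, the authors' deposited table lists Dubr with a log2 fold change of -1.72.

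Impg2 encodes a proteoglycan of the matrix between photoreceptors, and its transcript was scarce in both tissues. Liver counts were 16.8, 21.9, 28.0, 33.8 and 51.7 in wild-type vehicle, and 23, 25.7, 32.2, 33.5 and 45.2 in wild-type PCB-153. They were 4.58, 8.52, 10.4, 10.7 and 11.3 in knockout vehicle, and 6.07, 8.92, 9.75, 10.8 and 16.3 in knockout PCB-153. The highest knockout liver, at 16.3, was just below the lowest wild-type liver, at 16.8, and the mean was 3.20-fold lower. Log2 differences were -1.59 ± 0.31 and -1.56 ± 0.31 in liver, and 0.32 ± 0.23 and 0.41 ± 0.22 in spleen, where the ranges overlapped (26.5 to 54.4 and 31.4 to 69.0).

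**Figure D2:**
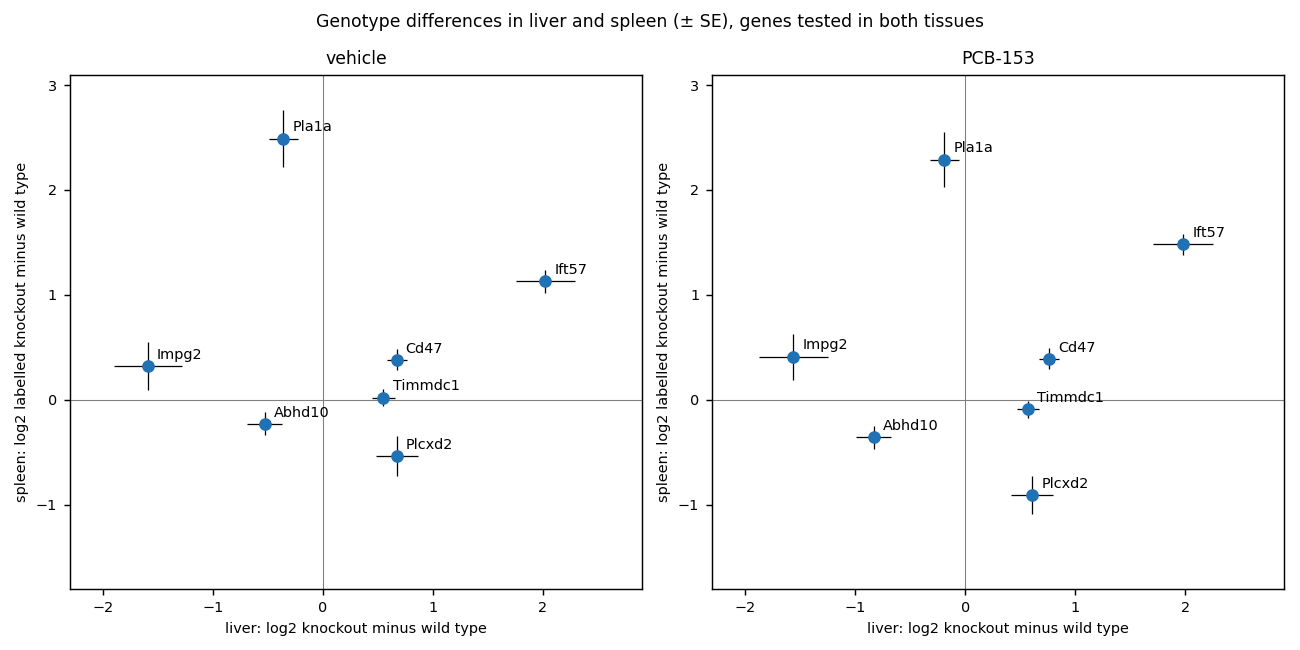
Genotype differences of the 7 genes tested in both tissues, knockout (as labelled) minus wild type on the log2(value + 1) scale, liver on the horizontal and spleen on the vertical axis, with vehicle (left) and PCB-153 (right). Points are limma estimates and lines are ± SE; Ift57 and Cd47 lie to the upper right, Pla1a is high in spleen alone (2.49 and 2.29), and Plcxd2 lies right of and below 0.

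The 10 genes were set beside the other tested genes within 20 Mb of Nr1i2. On the chromosome-end side, which holds the 10 genes, 5 of 68 tested genes were called in liver with vehicle and 7 of 68 with PCB-153. On the other side it was 1 of 164 each time. In spleen the counts were 4 of 83 and 7 of 83 on the end side, and 0 of 193 each time on the other side. Most of the called end-side genes are among the 10, which were chosen for that difference, so nothing is read from the contrast between the sides. Without the 10 genes, the end side had 0 of 60 and 1 of 60 called in liver and 0 of 74 and 2 of 74 in spleen (vehicle, then PCB-153). On other chromosomes 0.57% and 1.42% of tested genes were called in liver and 0.00544% and 0.12% in spleen. No called genes were taken out of those shares. Leaving out the 10, which were chosen for that difference, lowers the end-side counts in advance. Nothing is therefore read from setting them beside other chromosomes. Cox17, the nearest tested gene on that side, differed by 0.15 in liver and -0.09 in spleen on the log2 scale with vehicle. Gsk3b, 2.24 kb from Nr1i2 on the other side, differed by 0.02 and 0.16.

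Called genes of the same region that are not among the 10 included Tmem45a, Gm15518 and Cep97, all on the end side. Tmem45a, at 18.51 Mb, was higher in knockout livers with PCB-153 (1.31 ± 0.29), and Cep97, at 17.61 Mb, was lower in labelled knockout spleens with PCB-153 (-0.58 ± 0.11). Gm15518 was higher in labelled knockout spleens with PCB-153 (1.04 ± 0.14). Near the call threshold, Plcxd2 was the weakest of the 10 genes (-0.91 in spleen with PCB-153), and Sema5b (-1.41 in liver with PCB-153) was the uncalled gene nearest to it.

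At the distance limit, Impg2 was the farthest of the 10 genes. Of tested genes on its side, Col8a1 at 19.33 Mb was the last inside 20 Mb, with a log2 difference in liver of 0.09 with vehicle. Dcbld2 at 20.11 Mb was the first outside, with 0.69. Crybg3 at 21.20 Mb, named after its values were seen, was also lower in knockout livers (157 to 216 in wild type, 108 to 147 in knockout).

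**Figure D3:**
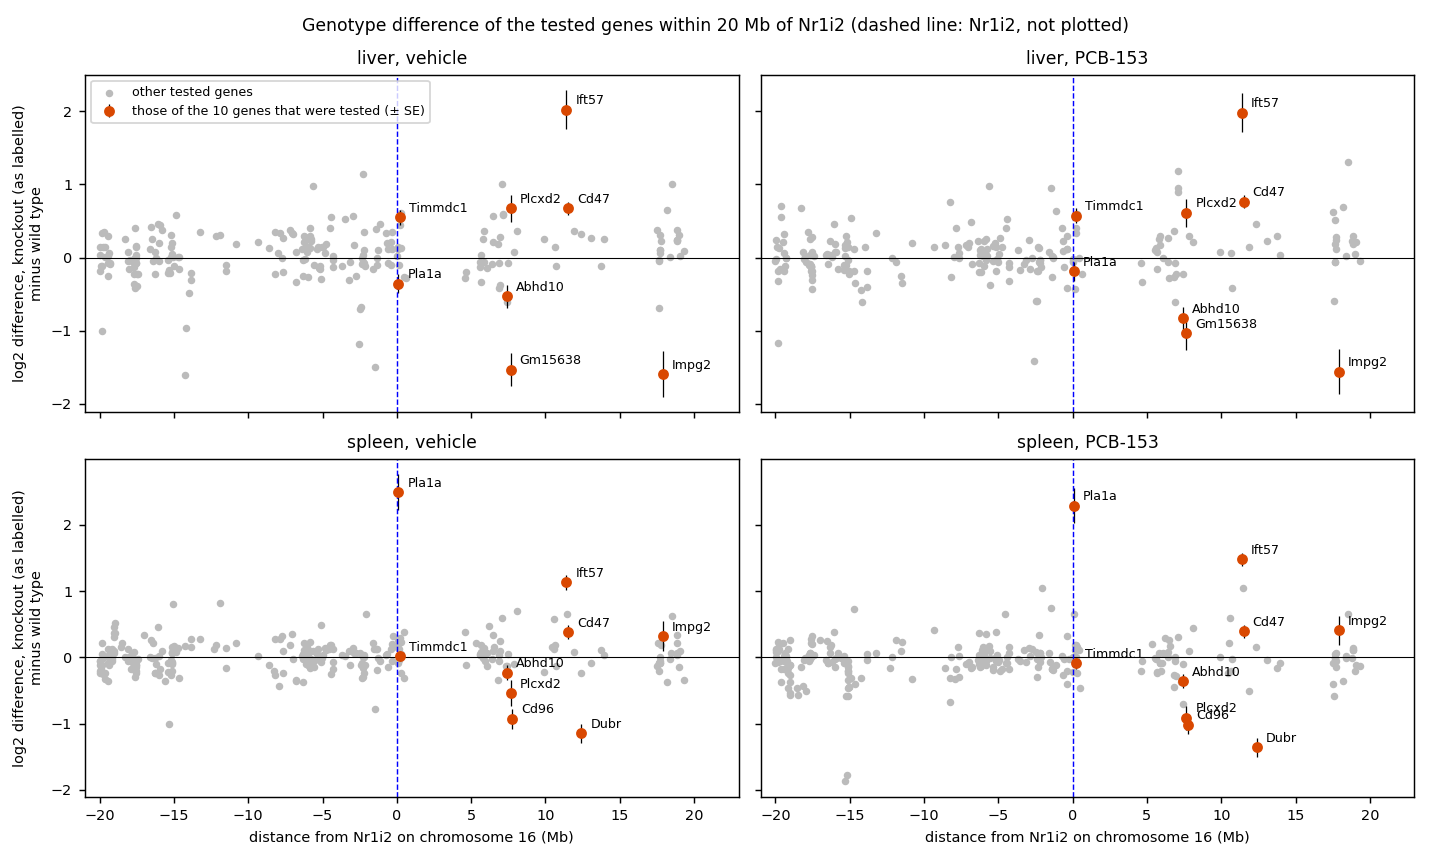
Genotype difference (log2, knockout as labelled minus wild type) against distance from Nr1i2 in Mb for tested genes of chromosome 16, in liver (top) and spleen (bottom), with vehicle (left) and PCB-153 (right). Grey points are other genes and orange points with ± SE bars are those of the 10 genes that were tested; the orange points all lie right of Nr1i2, on both sides of 0.

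For Ift57, Pla1a and Dubr, the genes with the most similar profile over the 8 group means (centred within each tissue) were found among 14991 genes tested in both tissues. Likeness is the root mean square difference of log2 values. The nearest to Ift57 was Sema3g (0.278), followed by Igf2 (0.339) and Gm49394 (0.342). The nearest to Dubr was Serpina1e (0.284), followed by Chrna2 (0.321) and Oas2 (0.362), beside a root mean square of 0.669 for Dubr's own profile. Dubr itself was below the level tested in liver, so the liver part of its profile rests on few reads. Pla1a had no close match, the nearest being 1700030C10Rik at 0.522, Gm7049 at 0.538 and Igha at 0.545, beside a root mean square of 0.854 for Pla1a's own profile. All of these lie on other chromosomes.

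PCB-153 against vehicle did not itself enter the choice of the genes and was tested. The same libraries served in the genotype comparisons that chose them, so these tests are not independent of the choice. In wild-type mice, 0 of 8 tested genes were called in liver and 0 of 9 in spleen by limma, against 0% of all genes in both tissues, and 0 of the 10 had an unadjusted p under 0.05. edgeR and DESeq2 also called 0 of them. The median log2 difference was -0.01 in liver and 0.05 in spleen, beside -0.01 and 0.01 over all genes. In knockout livers, 0 of 8 were called, against 0% of all genes, and 0 had an unadjusted p under 0.05. edgeR and DESeq2 called 0 of them there too. The smallest adjusted p in liver was 0.557 in knockout and 0.721 in wild type by limma, and the log2 differences ranged from -0.33 to 0.39.

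In labelled knockout spleens, 1 of the 9 tested genes was called, against 5.3% of all genes. That background was itself unsteady, with 10 to 3704 genes called when 1 library was left out, against 1010 with all (lowest without labelled knockout PCB-153 replicate 4, highest without labelled knockout PCB-153 replicate 2). The called gene was Ift57, whose counts were higher with PCB-153. With 5.3% of all genes called, nothing is read about the 10 genes from this single call. Its counts were 282, 286, 309, 333 and 378 with vehicle and 391, 400, 401, 447 and 450 with PCB-153, so the 2 groups did not overlap (4.62% of all genes did not in that comparison). The means were 318 ± 39.6 (SD, n = 5) and 418 ± 28.4 (SD, n = 5), a log2 difference of 0.40 ± 0.10, with an adjusted p of 0.0309 by limma, 0.0337 by edgeR and 0.00401 by DESeq2.

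That call depended on single libraries. The limma adjusted p was 0.0592 to 0.0991 when labelled knockout vehicle replicate 2, 3, 4 or 5, or labelled knockout PCB-153 replicate 1, 3 or 4, was left out. In wild-type spleens Ift57 went from 145 ± 23 (SD, n = 4) to 149 ± 11.5 (SD, n = 5), a log2 difference of 0.05 ± 0.11. The difference between the 2 exposure effects was 0.35 ± 0.15 with an adjusted p of 0.465 by limma (unadjusted 0.0279), so it did not pass the test. Of all 10 genes, 0 were called for this interaction in either tissue, against 0% of all genes, and Ift57 in spleen was the 1 with an unadjusted p under 0.05. edgeR and DESeq2 also called 0 of them.

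Cell type markers moved in the same spleen comparison. Of all tested genes 2.78% rose and 2.52% fell there. Of 9 B cell markers 6 fell and 0 rose (Cd79a by 0.64 and Ms4a1 by 0.60 on the log2 scale), and their sum went from 41785 to 53986 counts with vehicle to 24624 to 42085 with PCB-153. Of 8 erythroid markers 4 rose and 0 fell (Slc4a1 by 0.61, Klf1 by 0.56), and of 10 neutrophil markers 7 rose and 0 fell (S100a8 by 0.65, Ltf by 0.79). The summed erythroid markers were at 1159926 to 1860400 with vehicle and 1728226 to 2517702 with PCB-153, and the neutrophil sum at 3357 to 5171 and 4558 to 8986. Their part in the Ift57 value was not tested. Of the 16 IFT-B partners, 0 were called in that comparison, and their median log2 difference was -0.04.

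The other genes did not pass the test there. Plcxd2 had a log2 difference of -0.53 ± 0.18 (limma adjusted p 0.0867), with 94.6, 96.0, 105, 110 and 121 counts with vehicle and 38.0, 78.5, 78.8, 91.2 and 92.5 with PCB-153, which do not overlap. DESeq2 called it (adjusted p 0.0489), and so did limma without labelled knockout PCB-153 replicate 2 (0.0266). Without labelled knockout PCB-153 replicate 3, the library at 38.0, the difference was -0.30 (limma adjusted p 0.22). In spleen limma called Plcxd2 between genotypes with PCB-153 and not with vehicle. Its low labelled knockout PCB-153 values may therefore have helped choose it, and its exposure difference is not independent of that choice. Dubr had -0.31 ± 0.14 (adjusted p 0.181 by limma, and 0.0469 without labelled knockout PCB-153 replicate 5). Cd47 had 0.21 ± 0.10 (adjusted p 0.192 by limma), and 0.04 (adjusted p 0.77) under quantile normalisation. Cd96, Pla1a, Timmdc1, Abhd10 and Impg2 had differences from -0.11 to 0.15. Among relatives of Pla1a, 1 of 8 tested genes was called, the lysophosphatidylserine receptor P2ry10, which fell by 0.50. Among relatives of Abhd10 it was 1 of 8, the thioesterase Abhd17b, which fell by 0.42. Of all genes 5.3% were called there, so nothing is read from these single calls.

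**Figure D4:**
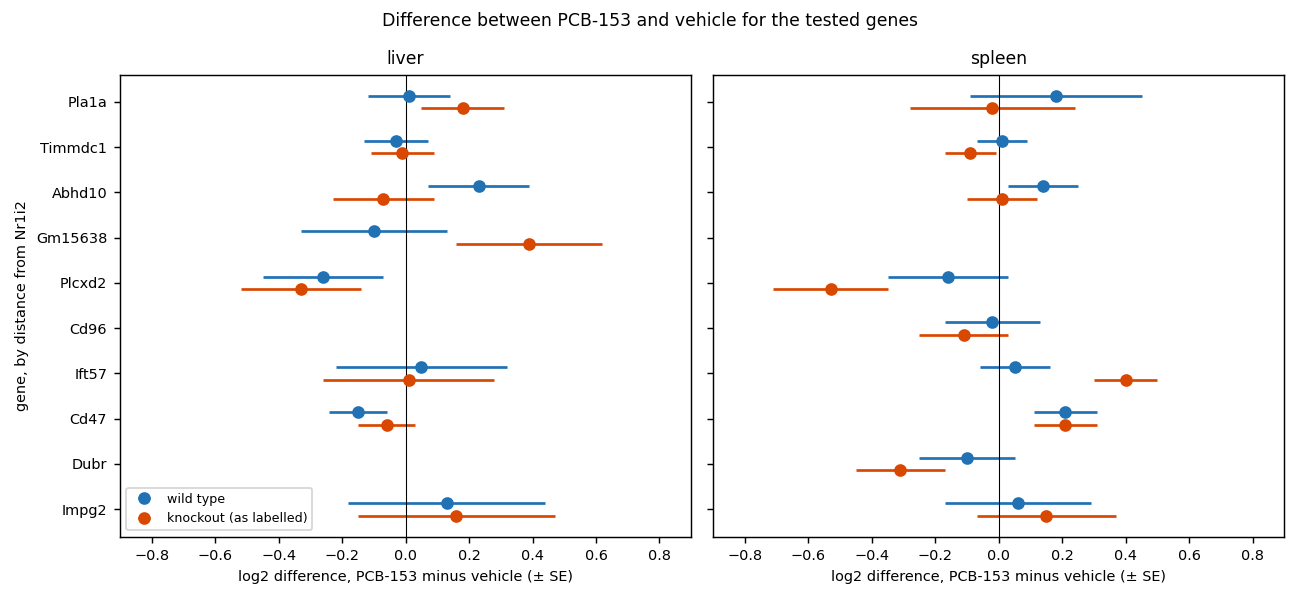
Difference between PCB-153 and vehicle (log2(value + 1), limma estimate ± SE) for the genes tested in liver (left; Cd96 and Dubr were below the level tested) and spleen (right; Gm15638 was). Blue points are wild type and orange points knockout as labelled. The orange Ift57 point in spleen, at 0.40, is the 1 called, in a comparison where 5.3% of all genes were called.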

How the data were processed

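Per the labels' protocols, RNA was extracted from frozen liver and spleen and sequenced after an Illumina TruSeq preparation on a HiSeq4000. Per the submitters' processing notes, the genome build was mm10 and the tools were STAR 2.6.0, FastQC, DESeq2 (listed as 3.8) and featureCounts. The sources used here do not state annotation, order or options.

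The authors deposited 1 signal table of normalised read counts per tissue, each value being a gene's reads divided by a size factor of its library. Dividing by the smallest step gave whole reads within 0.05 for 100% of values, and 26 symbols turned into dates were restored from the comparison tables. From the authors' deposited comparison tables, which per the file headers hold p-values and a test score (stat) beside log2 fold changes, 1 value is quoted.

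Genes with a mean of at least 10 were tested as log2(value + 1) with limma 3.58.1 in R 4.3.3 (lmFit, contrasts.fit, eBayes with trend), 1 fit per tissue over its 4 groups, two-sided, with Benjamini-Hochberg adjustment over all genes tested. This scale understates changes of low genes. The members and gene lists were chosen with earlier results of these data known. Named besides the 10 genes and Nr1i2 are the nearest tested genes, genes called in the same 20 Mb, those at its limits, the 3 nearest profiles, and up to 4 called genes of each list. Gm15591 and Phldb2 were added as overlapping genes. Some genes that this choice would name are not reported here.

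Positions are from GENCODE M21. Shared sequence was measured over 50-base words and was at most 9.9% for any of the 10 genes. Libraries of a group differed by more than counting noise. Alternatives were edgeR 4.0.16 and DESeq2 1.42.0 on the recovered reads, other pseudocounts, filters and scalings, 2-group fits, a replicate block, and each library left out. In simulated reads for PCB-153 against vehicle in knockout (in spleen, labelled knockout), limma recovered 70% of changes of log2 size 1 in liver (16155 genes) and 88% in spleen (19058 genes), and 28% and 52% at size 0.5. It also called 12 of 15955 unchanged genes in liver and 17 of 18858 in spleen. Those reads were drawn for each gene separately, without shifts shared by the genes of a library. The rates therefore need not hold for the real libraries.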

Additional observations from a re-analysis of the deposited data

Results flagged for a closer look

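Of 88 groups (Nr1i2 and the 10 genes in 4 groups of 2 tissues), 9 held a library whose gap to the next value was a large part of the group's range. Chance alone gives about 1 in 20. In liver these were Dubr in wild-type vehicle replicate 5 (6.26 normalised counts, next value 12.9), Cd47 in wild-type vehicle replicate 4 (1188, next 1070), and Plcxd2 in knockout vehicle replicate 2 (2117, next 1331). In spleen they were Plcxd2 in labelled knockout PCB-153 replicate 3 (38.0, next 78.5) and Impg2 in wild-type vehicle replicate 4 (26.5, next 41.6). The other 4 stood against libraries at 0. They were Gm15638 in labelled knockout vehicle replicate 4 (0.923) and labelled knockout PCB-153 replicate 5 (0.847), and Nr1i2 in wild-type vehicle replicate 4 (2.27) and wild-type PCB-153 replicate 1 (2.23).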

How the results depend on the processing

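Each single gene value was recomputed under every alternative, 1211 recomputed values in all. Of these, 1166 kept their direction and their side of the threshold, 34 lost a call, 8 gained one and 3 changed sign. The 3 were all for Timmdc1 in spleen with vehicle, at -0.01 with quantile normalisation, -0.02 without wild-type vehicle replicate 5 and -0.04 without labelled knockout vehicle replicate 5 (-0.04 to 0.06 over all libraries left out). Of the lost calls, 14 were for Plcxd2 in spleen with PCB-153, 9 for Ift57 under exposure in labelled knockout spleens, 5 for Cd96 in spleen with vehicle, 4 for Gm15638 in liver with PCB-153, and 1 each for Timmdc1 and Impg2 in liver with vehicle. The Cd96 call was lost without wild-type vehicle replicate 1 or 5 or labelled knockout vehicle replicate 2 or 4, the Gm15638 call without wild-type PCB-153 replicate 1 or 2 or knockout PCB-153 replicate 1 or 4, and the Timmdc1 call without knockout vehicle replicate 4. The Plcxd2 call was lost with any of 11 single libraries left out.

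Of the 10 genes, the number called between knockout and wild-type livers with vehicle was 3 at a minimum mean of 50, where fewer genes are tested (64 of all genes). It was 4 to 5 with a library left out (49 to 148 of all genes). With PCB-153 it was 5 to 6 in liver and 4 to 6 in spleen with a library left out, and 3 to 4 in spleen with vehicle. Over all genes these were 124 to 337, 10 to 119 and 4 to 22. For PCB-153 against vehicle in labelled knockout spleens it was 0 with no filter on low values, 0 in the fit of those groups alone, 2 by DESeq2, and 0 to 2 with a library left out. Over all genes the same settings called 232, 184, 2027 and 10 to 3704. Nothing is read about the 10 genes from these counts. The share of tested genes near Nr1i2 that were called was 2.59% within 20 Mb and 1.64% within 10 Mb in liver with vehicle (0.607% of all genes). In liver with PCB-153 it was 3.45% within 20 Mb and 1.82% within 5 Mb (1.45% of all genes). In spleen with PCB-153 it was 2.54% and 1.64% at those distances (0.157% of all genes). These shares include the 10 genes, chosen for their difference and fewer in a narrower window, so nothing is read from them. The cause of the other changes was not tested.

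Same-numbered libraries of different groups had deviations correlated from -0.378 to 0.449 in liver (median 0.0305) and -0.229 to 0.271 in spleen (median 0.064). Differently numbered libraries ranged from -0.477 to 0.5 (median -0.0095) and from -0.321 to 0.435 (median -0.0055). The labels do not say whether equal numbers mark a shared litter or batch, and these overlapping ranges cannot decide it. With the replicate block, the genes called between genotypes were 5 and 6 in liver and 4 and 4 in spleen (vehicle, then PCB-153), and Ift57 under exposure in labelled knockout spleens kept an adjusted p of 0.0395. Depth limited Cd96 in liver and Gm15638 in spleen to a few reads.

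Over all genes, the number called also moved when single libraries were left out. It ranged over 10 to 3704 for PCB-153 against vehicle in labelled knockout spleens (20 or fewer without labelled knockout PCB-153 replicate 3 or 4 or labelled knockout vehicle replicate 5, and 2224 and 3704 without labelled knockout PCB-153 replicates 5 and 2). Between genotypes it ranged over 49 to 148 with vehicle and 124 to 337 with PCB-153 in liver, and over 4 to 22 and 10 to 119 in spleen. For exposure in knockout livers it was 0 to 3 and for the spleen interaction 0 to 2. Between tools and fits, for PCB-153 against vehicle in labelled knockout spleens it was 1010 by limma, 982 by edgeR, 2027 by DESeq2, 232 with no filter on low values and 184 in the fit of those groups alone. Between genotypes with vehicle it was 98 by limma and 275 by DESeq2 in liver (64 at a minimum mean of 50), and 6 and 39 in spleen (3 at that minimum, 9 with no filter). With PCB-153 it was 234 and 380 in liver, and 30 and 228 in spleen (65 by edgeR, 14 in the 2-group fit, 18 with the replicate block). DESeq2 also called 63 genes for exposure in knockout livers, 1 in wild-type livers, 3 in wild-type spleens and 34 for the spleen interaction, where limma called 0.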
